A study of Mus musculus with 8 samples.

Results

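The genes described here build ribosomes, together with Myc, a transcription factor that drives cell growth. The list held 38 mouse genes chosen by name for their roles in RNA polymerase I transcription, rRNA processing and the nucleolus. Of these, 34 had a probe set of their own in the platform annotation, and 33 passed a filter on low values, among 11874 genes tested in all. The 5 without a tested value were Wdr75, whose probe set lay below background on every array, Tsr1, whose only probe set was shared with another gene, and Mybbp1a, Gnl3 and Npm3, which had no probe set in the annotation used. Each gene was represented by its brightest probe set.

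Ribosome production starts in the nucleolus, where RNA polymerase I transcribes a long precursor rRNA. Small nucleolar ribonucleoproteins (snoRNPs) modify this precursor, and successive assembly factors cut, fold and export it as the small and the large ribosomal subunit. MYC is known to raise transcription of many of these genes, often through the DNA element CACGTG, and growing tumour cells depend on the pathway for protein synthesis. NR2F2 (COUP-TFII) is a nuclear receptor that regulates transcription.

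RNA was measured in Epcam-positive mouse skin tumour cells isolated by flow sorting, on 8 Affymetrix mouse arrays in 4 groups of 2. Control papilloma, labelled NR2F2 wild type, was set against papilloma that overexpressed NR2F2 (GOF, for gain of function). Control carcinoma, also labelled wild type and lacking Cre, was set against squamous cell carcinoma of genotype K5CreER;NR2F2fl/fl (knockout, KO). CreER driven from the keratin 5 promoter acts in basal keratinocytes after an inducer is given, so other cells keep the floxed gene. The labels give neither the construct behind the overexpression, nor the animals' ages, nor whether replicate arrays stand for different animals. The p-values thus reflect array-to-array spread, which may be technical. Values are log2 expression. The tumour types differ in scale in the deposited table, with array medians of 3.12 to 3.16 in papilloma and 5.08 to 5.15 in carcinoma, so no level was compared between them.

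The target gene followed its labels. Nr2f2 was 2.80 and 2.55 in control papilloma against 11.43 and 11.47 in GOF, and 7.93 and 8.14 in control carcinoma against 4.77 and 5.0 in KO. The keratinocyte genes Krt5 and Krt14 were between 12.02 and 12.75 on all 8 arrays. Of the 8 keratinocyte markers tested, 5 were lower on both GOF arrays (62.5%, against 21.9% of all genes). On both KO arrays 4 were lower (50%, against 19%), among them Krt5 (-0.07) and Krt14 (-0.08). None was higher on both arrays in either comparison. Control carcinoma replicate 2 stood apart by its markers of other cell types: its mean over 9 macrophage markers was 6.89, against 5.23 to 5.52 on the other carcinoma arrays. That array also read high for both Xist (6.51), which is made from an inactive X chromosome, and Eif2s3y (7.45), a gene on the Y chromosome. Both GOF arrays had macrophage means of 5.65 and 6.65, against 3.29 and 3.25 in control papilloma. There Lyz2, one of these markers, lay below background (2.98 and 2.29). Another of them, Csf1r, overlapped, at 3.47 and 3.62 in control papilloma against 3.75 and 3.50 in GOF. In such bulk samples, fewer cells of a type and less RNA per cell cannot be told apart.

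Because MYC binds CACGTG, the promoters of the list were searched for it. RefSeq windows of 300 bases (250 before to 50 after the gene's start, build GRCm38.p6) were found for 32 of the 38 genes, and 8 of them (25%) held CACGTG. The element reads the same on both strands. It was in 8.09% of all 27025 windows. Of the 27 tested members with a window 22.2% held it, against 11.5% of the 9523 genes tested that had one. The stretches around the matches of the measured genes are given below so that their flanks can be compared, 5′ to 3′ on the gene's strand with the element in capitals. Mybbp1a and Tsr1, the other two with a match, had no expression value of their own.
Wdr43, chr17:71616222-71616247, plus strand: cccgggcgaaCACGTGgctgccgcgg
Pes1, chr11:3963967-3963992, plus strand: ctaggcagggCACGTGcgggaggaag
Nop2, chr6:125131813-125131838, plus strand: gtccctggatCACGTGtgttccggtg
Rrn3, upstream match, chr16:13780474-13780499, plus strand: gcgccaaggtCACGTGcacacgcctc
Rrn3, downstream match, chr16:13780641-13780666, plus strand: acgctctgctCACGTGggccgcgtcc
Utp20, chr10:88826765-88826787, minus strand: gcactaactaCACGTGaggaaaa
Ltv1, chr10:13193094-13193119, minus strand: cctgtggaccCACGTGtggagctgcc

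Of the 9 matches in the list, 6 lay after the annotated start. In Wdr43 the element began at base 18 of the transcript and in Pes1 at base 3, while in Nop2 it began 60 bases before the start. Rrn3 held 2 copies, 215 and 48 bases before the start. The half-site of nuclear receptors, AGGTCA on either strand, was in 7 of the 32 windows (21.9%), against 18.1% of all windows, and in 18.5% of the windows of the tested members, against 15.5% of those of all genes tested. The upstream element of Rrn3 overlaps such a half-site. Genes with no match in this window may still be bound elsewhere, and a match is a description of the letters alone.

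In carcinoma, loss of Nr2f2 went with higher levels across the ribosome biogenesis genes. Both KO arrays lay above both controls for 32 of the 33 genes tested, a pattern shown by 25.5% of all genes tested, and none lay below both, against 19% of all genes. The exception was Myc itself. All 33 differences were above 0 (52% of all genes, with 48% below). The median difference was 0.66 (log2), or 1.58-fold, against 0.01 over all genes, and it ran from 0.14 for Npm1 to 1.00 for Polr1b among the 32, or from 1.10-fold to 2.00-fold. No single gene passed the test: 0 of 33 had an adjusted p below 0.05 (limma with Benjamini-Hochberg adjustment over all genes), and 0.0168% of all genes did (Nr2f2 and Fermt2, both lower). The lowest adjusted p among the 33 was 0.127, shared by Polr1b, Pa2g4 and Heatr1. Before adjustment, 27 of the 33 had a p below 0.05 and were higher, against 8.67% of all genes, and 0 were lower (5.75%). A difference of at least 1.5-fold in all 4 array pairs was seen in 10 genes, against 1.67% of all genes, and 0 were that much lower (1.71%). Over the alternatives that count ran from 8 to 20, the highest without control carcinoma replicate 1. With an array left out, fewer pairs have to pass. The share of all genes was not counted in these settings. Of the 33 genes, 30 lay above the median level of the genes tested in carcinoma, where the share of all genes higher on both KO arrays was 31.8% and the median difference 0.085.

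**Figure D1:**
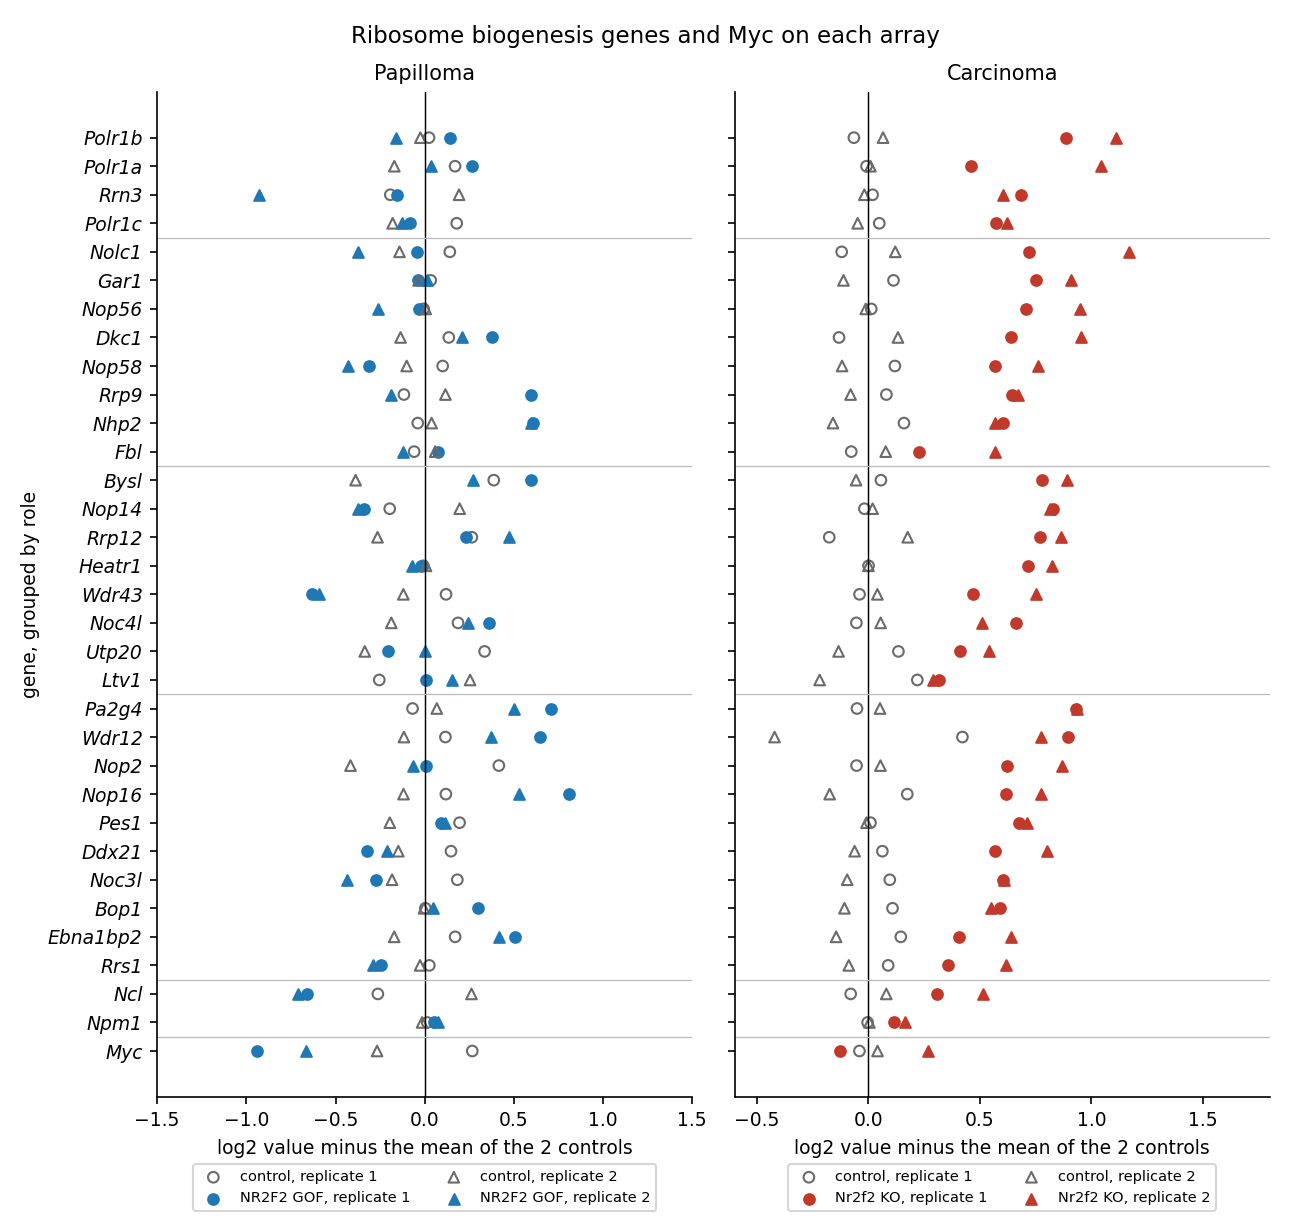
The plot gives the log2 value of each of the 33 genes on each array minus the mean of the controls of its tumour type, with genes grouped by role and open symbols for controls. In carcinoma the KO arrays sit above both controls for every gene except Myc, while in papilloma the GOF arrays fall on either side of 0.

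The gene with the largest difference belonged to the machinery that transcribes rDNA. Polr1b, the second-largest subunit of RNA polymerase I, was 6.25 and 6.39 in control carcinoma and 7.21 and 7.43 in KO. The KO arrays were thus about 1 log2 unit above the controls, with no overlap, a difference of 1.00 ± 0.17 (SE, n = 2 per group) with an adjusted p of 0.127 in limma. Polr1a, the largest subunit, was 7.95 and 7.97 against 8.42 and 9.0, so that the KO arrays differed more from each other than the controls did. Polr1c, a subunit shared with RNA polymerase III, was 10.35 and 10.25 against 10.87 and 10.92. Rrn3, the initiation factor that brings the polymerase to the rDNA promoter, was 8.27 and 8.23 against 8.93 and 8.85. Both KO arrays lay above both controls in all 4 genes, and their median difference was 0.70.

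The proteins of the modifying snoRNPs showed the same arrangement of arrays in 8 of 8 genes, with a median difference of 0.73. Nolc1, a chaperone of snoRNPs, was 8.50 and 8.74 in control carcinoma against 9.34 and 9.79 in KO, a difference of 0.94 ± 0.22 (SE, adjusted p 0.165 in limma). Gar1, a protein of the pseudouridylating box H/ACA particles, was 8.91 and 8.69 against 9.56 and 9.71. Dkc1, the pseudouridine synthase of these particles, had a highest control of 10.27 against 10.77 and 11.09 in KO, and their partner Nhp2 was 10.42 and 10.10 against 10.86 and 10.83. In these 3 genes the lowest KO array exceeded the highest control. Of the methylating box C/D particles, the core proteins Nop56 (9.26 and 9.24 against 9.95 and 10.20) and Nop58 (10.49 and 10.25 against 10.93 and 11.13) were higher by 0.83 and 0.66. Fbl, their methyltransferase, had the smallest difference of the group, 0.40, from 11.13 and 11.28 to 11.43 and 11.78. The other probe set of Fbl gave 0.58. Rrp9, which binds the U3 snoRNP, was higher by 0.66.

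Factors of the small subunit were higher on both KO arrays in 8 of 8 genes tested, with a median difference of 0.69. Bysl, needed for late maturation of the small subunit, was 7.68 and 7.57 in control carcinoma against 8.41 and 8.52 in KO. Nop14, a processome component, was 8.79 and 8.82 against 9.63 and 9.62, and Rrp12, an export factor, was 6.37 and 6.72 against 7.32 and 7.41. Heatr1, which links polymerase I transcription to processing, was 7.32 and 7.32 against 8.04 and 8.14, with controls that coincided. Their differences were 0.83, 0.82, 0.82 and 0.77, with adjusted p between 0.127 and 0.243 in limma. Wdr43 and Noc4l were higher by 0.61 and 0.59. Utp20 and Ltv1 had smaller differences of 0.48 and 0.30, with 95% intervals that included 0 (-0.10 to 1.05 and -0.24 to 0.84). Without control carcinoma replicate 2 the difference of Ltv1 was 0.085. Wdr75, which lay below background, was between 3.73 and 3.95 on the 4 carcinoma arrays.

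Factors of the large subunit were higher on both KO arrays in 10 of 10 genes, with a median difference of 0.69. Pa2g4, a nucleolar growth regulator bound to pre-ribosomes, was 9.62 and 9.72 in control carcinoma and 10.60 on both KO arrays, a difference of 0.93 ± 0.15 (SE, adjusted p 0.127 in limma). Wdr12, Pes1 and Bop1 form a complex needed to mature the large-subunit rRNA. Wdr12 was 8.22 and 7.38 against 8.69 and 8.57, Pes1 was 9.07 and 9.05 against 9.73 and 9.77, and Bop1 was 9.32 and 9.11 against 9.80 and 9.76. The controls of Wdr12 were far apart, and without control carcinoma replicate 2 its difference was 0.41 in place of 0.84. Those of Pes1 nearly coincided. Nop2, an rRNA methyltransferase, was higher by 0.74 (7.49 and 7.60 against 8.16 and 8.41). The other 5 ran from Nop16 (0.70) and the helicase Ddx21 (0.68) through Noc3l (0.61) and Ebna1bp2 (0.52) to Rrs1 (0.49).

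Among the biogenesis roles, the abundant nucleolar proteins had the lowest median difference on the brightest probe sets, 0.27 over 2 genes. Npm1 (nucleophosmin), a histone and ribosome chaperone, was 12.16 and 12.17 in control carcinoma and 12.28 and 12.33 in KO, a difference of 0.14 with a 95% interval of -0.18 to 0.46. Its other probe set gave a difference of 0.40. Ncl (nucleolin), which binds precursor rRNA, was 8.28 and 8.44 against 8.67 and 8.87, a difference of 0.41 with an interval of -0.08 to 0.90. Both KO arrays lay above both controls in each gene.

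Myc did not share the pattern in carcinoma. It was 9.68 and 9.77 in control carcinoma and 9.59 and 9.99 in KO, so that the controls lay between the KO arrays. The difference was 0.07 ± 0.24 (SE, adjusted p 0.941 in limma), with a 95% interval of -0.49 to 0.63. An increase of Myc mRNA up to that bound therefore could not be told from none.

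**Figure D2:**
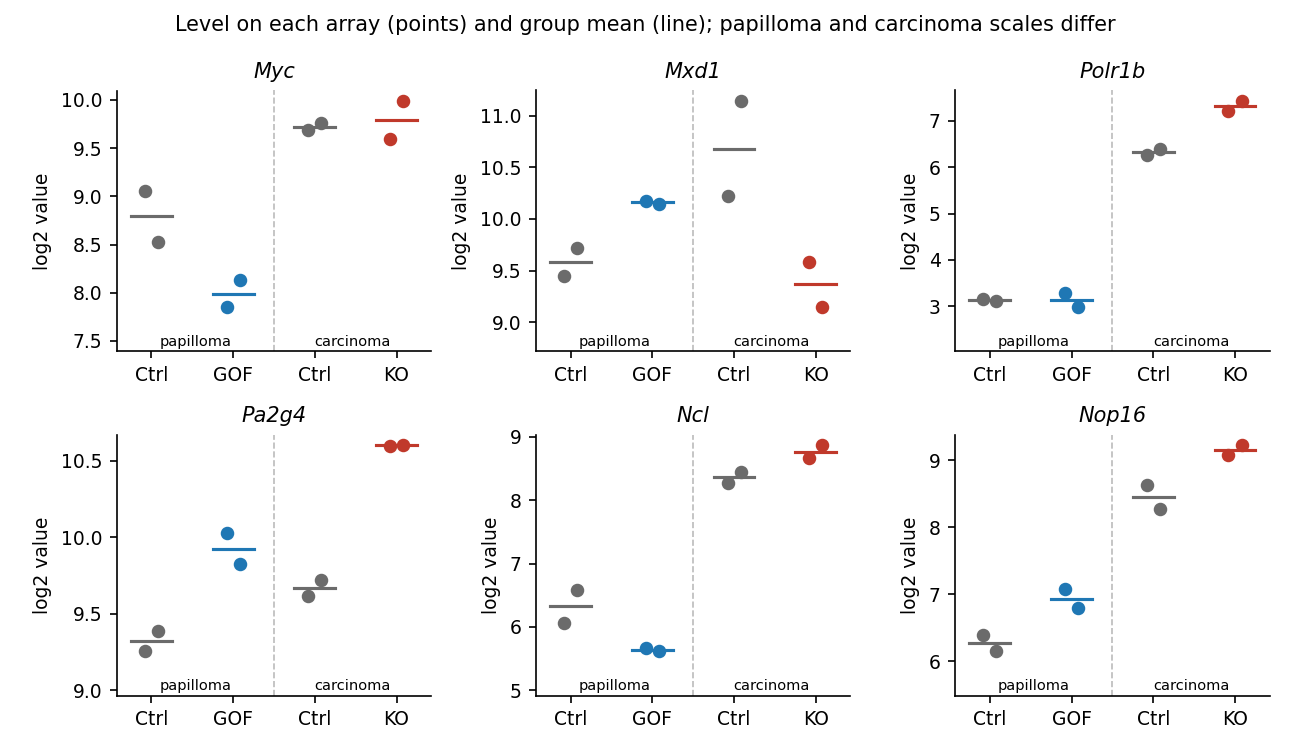
The panels give the log2 level of Myc, its antagonist Mxd1, Polr1b, Pa2g4, Ncl and Nop16 on each array, as points, with a line at each group mean. Polr1b, Pa2g4, Ncl and Nop16 are higher in KO than in control carcinoma without overlap, while Myc overlaps there and lies lower on both GOF arrays than on both control papilloma arrays.

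Where genes had several probe sets, these mostly agreed in carcinoma. The 34 measured genes had 57 probe sets, of which 55 were higher on both KO arrays and 0 lower on both. The others belonged to Myc and Ebna1bp2. The share over all probe sets was not counted. All 19 genes with more than 1 probe set had only positive KO differences. The sizes still varied: the other probe set of Pes1, near background at means of 5.03 and 5.11, gave 0.07 in place of 0.69. That of Nop16 gave 0.42 in place of 0.70, and that of Wdr12, at means of 5.13 and 5.37, gave 0.24 in place of 0.84. Some were larger: the other probe set of Npm1 gave 0.40 in place of 0.14, that of Dkc1 1.23 in place of 0.80, and that of Rrs1 0.71 in place of 0.49.

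The KO arrays also differed from each other, since replicate 2 was the higher of the pair in 26 of the 33 genes. The median difference from the control mean was 0.62 for replicate 1 and 0.75 for replicate 2. Stromal markers differed between the same arrays. The macrophage gene Lyz2 was 6.2 and 7.36 in control against 4.82 and 5.50 in KO, near background there. Means over 10 endothelial markers were 5.30 and 6.11 in control against 5.07 and 5.18 in KO, and over 8 fibroblast markers 6.60 and 8.15 against 6.09 and 6.81. Of the macrophage, endothelial and fibroblast genes tested, 3 of 9, 5 of 10 and 3 of 8 were lower on both KO arrays (19% of all genes). On both KO arrays 0 were higher (25.5% of all genes). Against control carcinoma replicate 1 alone, 32 of the 33 genes remained higher on both KO arrays (35.5% of all genes) with a median difference of 0.62. Fewer of the 33 genes then had an unadjusted p below 0.05 in limma. Leaving out no other array lowered that count as far. Proliferation markers moved with the biogenesis genes too. Of the 19 tested, 16 were higher on both KO arrays (84.2%, against 25.5% of all genes) and 0 lower (19% of all genes). Their median difference was 0.72 (Bub1 1.10, Birc5 1.00). The part of proliferation in the result was not tested.

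The rest of the pathway was arranged alike. Of 96 other biogenesis genes tested (111 listed), 81 were higher on both KO arrays (84.4%, against 25.5% of all genes). On both KO arrays 1 was lower (Pih1d1, -0.19), against 19% of all genes. None passed the adjusted threshold in limma (0.0168% of all genes), while 45 had an unadjusted p below 0.05 and were higher (8.67% of all genes). Against control carcinoma replicate 1 alone, 81 were higher (35.5% of all genes) and 4 lower (4241 of all 11874 genes). By role, these were 10 of 14 of the other polymerase I machinery, 5 of 6 snoRNP proteins, 31 of 33 small-subunit processome genes and 35 of 43 large-subunit factors. Tcof1 (treacle), which supports rDNA transcription, was 7.09 and 7.29 against 7.99 and 8.15. Nob1, the nuclease that makes the end of the small-subunit rRNA, was 7.46 and 7.41 against 8.25 and 8.38, and Nip7, a large-subunit factor, was 8.95 and 8.69 against 9.77 and 9.73. The KO arrays lay well clear of the controls in all 3. Further examples were Taf1d (0.70), Ruvbl1 (0.73), Snu13 (0.52), Rcl1 (0.80) and Noc2l (0.93). These lists, like the main one, were chosen with results of these data known.

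Growth genes outside the nucleolus that MYC is known to activate were mostly higher too. On both KO arrays 27 of 31 tested were higher (87.1%, against 25.5% of all genes) and 1 was lower (Eif4e, -0.19), against 19%. Their median difference was 0.46. Tfrc, the transferrin receptor, was 7.99 and 8.51 in control against 9.73 and 9.44 in KO, a difference of 1.34 with an adjusted p of 0.129 in limma. Shmt2, a mitochondrial enzyme of serine metabolism, was higher by 1.18. The MYC network, a list of MYC relatives, partners, antagonists and regulators, was arranged otherwise. Of 13 tested, 2 were higher (15.4%) and 5 lower (38.5%) on both KO arrays, against 25.5% and 19% of all genes. Those lower were the MYC relatives Mycn (-0.08) and Mycl (-0.22), Fbxw7 (-0.40), and the antagonists Mxd1 and Mxd4. Mycl lay below background on every carcinoma array, so it gave no usable direction there. Mxd1, which competes with MYC for its partner MAX, was 10.22 and 11.14 in control against 9.58 and 9.15 in KO (-1.31, adjusted p 0.167 in limma). Its difference was -0.85 without control carcinoma replicate 2. Mxd4, of the same family, was 8.78 and 8.51 against 7.94 and 7.76 (-0.80). Of 6 genes that MYC is known to repress, 1 was lower on both KO arrays (16.7%, against 19% of all genes) and none was higher. Against control carcinoma replicate 1 alone, 3 of the 6 were lower and 1 higher, while 4241 of all 11874 genes were lower and 4213 higher. The gene lower in both counts was the cell-cycle inhibitor Cdkn2b, at 9.49 and 9.38 against 8.11 and 7.51 (-1.63, adjusted p 0.101 in limma).

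**Figure D3:**
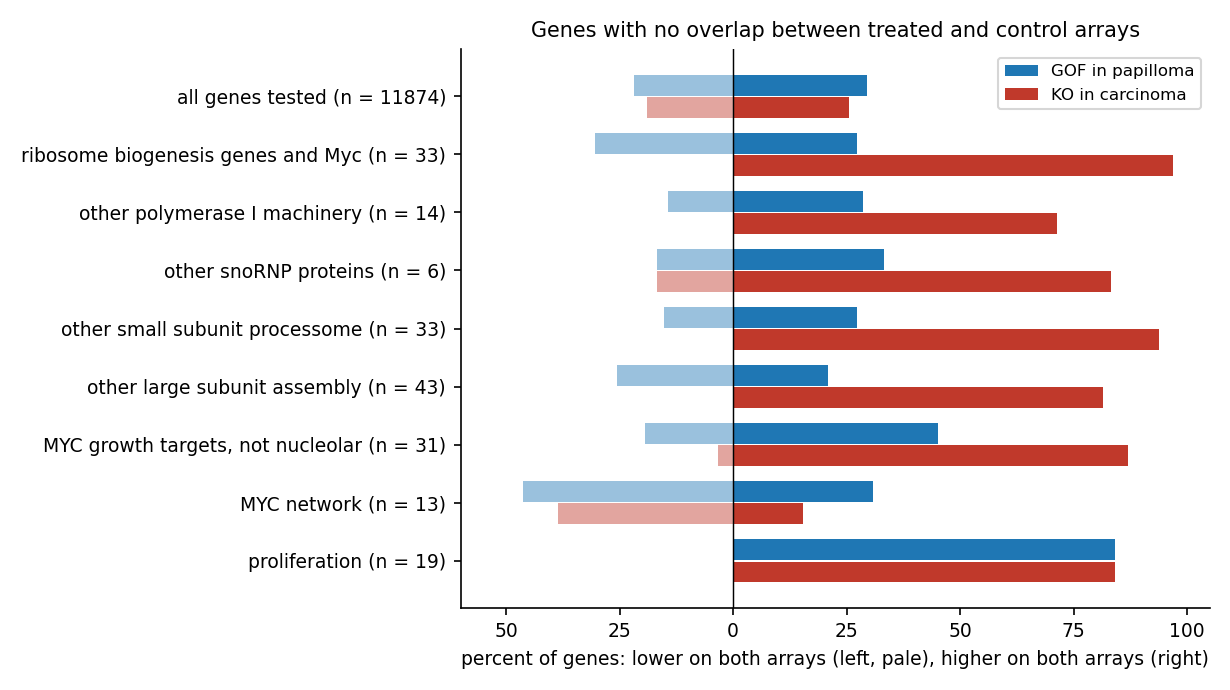
Bars give the percent of the genes tested in each list that lay above both controls on both GOF or KO arrays (to the right) or below both controls (to the left, pale). In carcinoma the biogenesis lists reach 71.4% to 97.0% higher against 25.5% of all genes, while in papilloma they stay between 20.9% and 33.3% against 29.5%.

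In papilloma, NR2F2 overexpression went with no common direction of the same genes. Of the 33, 9 were higher on both GOF arrays than on both controls (29.5% of all genes), 10 were lower on both (21.9% of all genes) and 14 overlapped. Leaving out 1 array, with fewer to separate, gave 16 higher without control papilloma replicate 1, 14 higher without GOF replicate 2 and 16 lower without control papilloma replicate 2. Over the alternatives, the share of all genes higher on every GOF array ran from 25.3% to 46.0%. The share lower was not counted there. The median difference was -0.01, against 0.04 over all genes, with 15 differences above 0 (54.9% of all genes) and 18 below (45.1%). None passed the adjusted threshold in limma, against 1.55% of all genes, and the lowest adjusted p was 0.103. Before adjustment, 4 had a p below 0.05 and were higher (11.1% of all genes) and 3 were lower (7.07%). None was at least 1.5-fold higher in all 4 array pairs (4.63% of all genes) or lower (2.6%). With fewer pairs to pass, 1 to 3 were higher without control papilloma replicate 2, GOF replicate 2 or control papilloma replicate 1. The share of all genes was not counted in those settings.

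Myc had the largest difference in papilloma. It was 9.06 and 8.53 in control and 7.85 and 8.13 in GOF, lower on both arrays with no overlap, a difference of -0.80 ± 0.24 (SE, n = 2 per group, adjusted p 0.144 in limma). Ncl was 6.06 and 6.59 against 5.66 and 5.61 (-0.68), and Wdr43 was 8.51 and 8.27 against 7.76 and 7.80 (-0.61). The GOF arrays of both nearly coincided while their controls were spread. Nop58 (-0.37) and Nop14 (-0.36) were also lower without overlap.

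Others were higher. Pa2g4 was 9.26 and 9.39 in control papilloma against 10.03 and 9.82 in GOF, a difference of 0.60 ± 0.15 (SE, adjusted p 0.103 in limma). Nhp2 was 9.35 and 9.42 against 9.99 and 9.98 (0.60). Nop16, an assembly factor of the large subunit, was 6.39 and 6.15 against 7.08 and 6.80 (0.67). Its other probe set gave the opposite sign (-0.30) with overlapping arrays. That probe set was above background on only 1 of the 4 papilloma arrays, so it gave no usable direction there. Wdr12 (0.51) and Ebna1bp2 (0.46) were also higher without overlap. Of the 19 genes with several probe sets, 16 had differences of 1 sign in papilloma. In Nop16 and Pes1 the deviating probe set lay near background, above it on 1 and 2 of 4 arrays. In Noc4l, whose probe sets were above background on all 4, the brightest gave 0.30 and the others -0.048 and 0.068.

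By role, 0 of 4 polymerase I genes stood clear of the controls in either direction on the brightest probe set. Another probe set of Polr1a was higher on both GOF arrays (0.56), while a further one overlapped (0.05). The other probe set of Polr1c was lower on both GOF arrays (-0.31). Polr1b, at 2.98 to 3.28, lay near background in papilloma, above it on 2 of 4 arrays, so a change would hardly be seen. Against the same 29.5% and 21.9% of all genes, 2 of 8 snoRNP proteins were higher and 2 lower, of the small-subunit factors 1 of 8 and 3, and of the large-subunit factors 5 of 10 and 3. Among the 96 other biogenesis genes, 24 were higher on both GOF arrays and 19 lower. These shares of 25% and 19.8% are below the 29.5% and 21.9% of all genes. The large-subunit factor Rpf2, which helps to place the 5S particle, was the only one of these to pass the test, at 5.39 and 5.76 in control against 6.60 and 6.73 in GOF (1.09, adjusted p 0.0462 in limma). The call was lost under 14 of the 18 alternatives, with adjusted p from 0.041 to 0.26 over all of them. Leaving out any papilloma array gave 0.0949 to 0.26, and averaging its probe sets gave a difference of 0.63 (adjusted p 0.0858). Gnl3l, a nucleolar GTPase, was higher by 1.36 with an adjusted p of 0.0559, and Wdr46 by 1.28, while Mphosph10 differed by -0.85. Of the MYC-activated growth genes, 14 of 31 were higher (45.2%) and 6 lower (19.4%), with Prmt5 at 1.08 and the cyclin Ccnd2 at -1.94. Of the 13 MYC network genes, 4 were higher (30.8%) and 6 lower (46.2%), among them Mycl (-0.76), a relative of Myc. The GOF arrays of Mycl, at 3.20 and 3.30, lay near their backgrounds of 3.33 and 3.13.

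Other measures moved with GOF, beside 29.5% of all genes higher and 21.9% lower on both GOF arrays. Proliferation markers were higher on both GOF arrays in 16 of 19 genes and lower in 0, with a median of 0.62, as Birc5 (0.92) shows. Macrophage markers were higher in 8 of 9 and endothelial markers in 10 of 10, and Epcam itself was lower, at 10.17 and 10.57 in control against 9.0 and 8.68 in GOF (-1.53, adjusted p 0.0343 in limma, 0.0541 to 0.212 when a papilloma array was left out, and not passed under 7 of 18 alternatives). Their part in the values of the biogenesis genes was not tested.

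**Figure D4:**
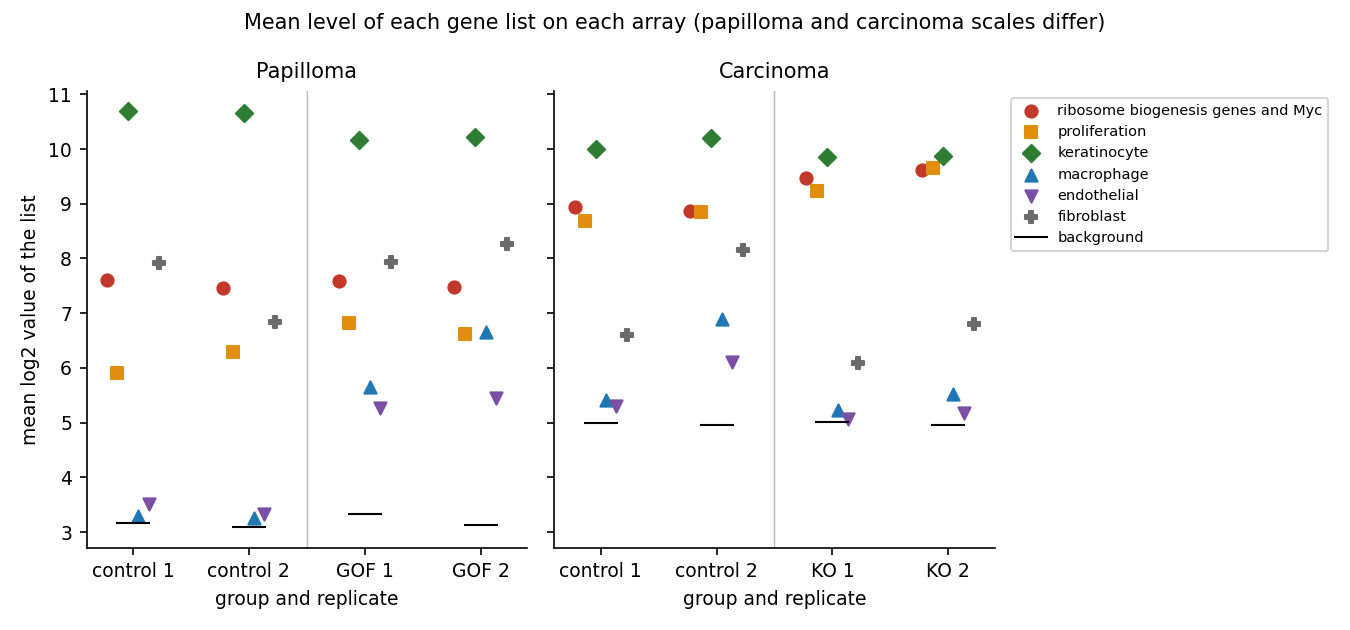
Points give the mean log2 level of each gene list on each array, with a dash for background, the highest of the non-mouse control probe sets. The biogenesis mean is 8.94 and 8.87 in control carcinoma against 9.48 and 9.62 in KO, and 7.61 and 7.46 in control papilloma against 7.60 and 7.47 in GOF.

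Setting the effects of loss and gain side by side, 9 genes were lower on both GOF arrays and higher on both KO arrays, a pattern of 4.56% of all genes. Another 9 were higher in both (8.39% of all genes), 14 overlapped in papilloma and were higher in KO, and Myc was lower in GOF and overlapped in carcinoma. All 32 genes besides Myc were higher on both KO arrays, so these counts only restate their directions in papilloma. There 28.1% of the 32 were higher and 28.1% lower, against 29.5% and 21.9% of all genes. The KO difference exceeded the GOF difference in 32 of 33 genes (49.7% of all genes), the exception being Nhp2, whose values were 0.59 and 0.60. For the difference between the effects, 16 genes had an unadjusted p below 0.05 and were higher in KO (6.74% of all genes). None passed after adjustment in limma, against 0.345% of all genes, and the lowest adjusted p was 0.103, for Wdr43. Since the tumour types were on different scales, these sizes depend on each scale.

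**Figure D5:**
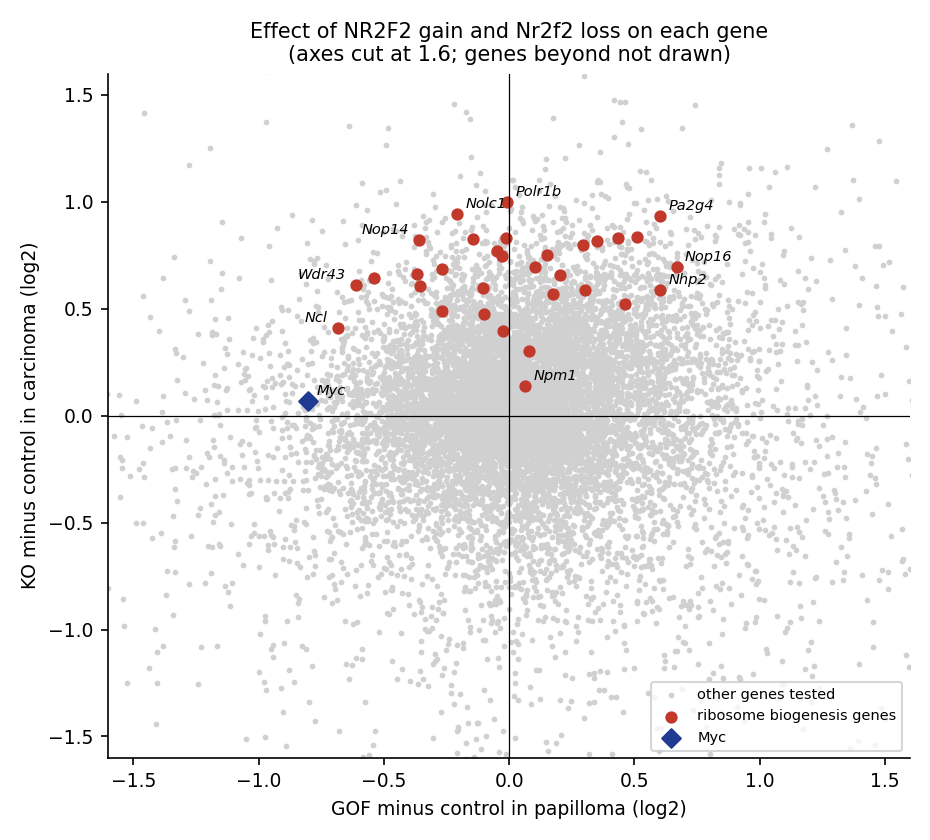
Each point is a gene, with its GOF minus control difference in papilloma on the x axis and its KO minus control difference in carcinoma on the y axis, both log2, and all other genes tested in grey. The biogenesis genes lie between 0.14 and 1.00 on the y axis and on both sides of 0 on the x axis, and Myc lies at -0.80 and 0.07.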

How the data were processed

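The authors deposited log2 values of 45141 probe sets made with RMA on Affymetrix mouse PM strip arrays, per the labels, and the submitters' processing notes name RMA and affy. The version and the build are not given in the sources used here. Of the probe sets, 28898 had 1 gene symbol, 551 had several (not used), and 28689 matched RefSeq (GRCm38.p6) by Entrez number. A gene was tested when its brightest probe set exceeded its tumour type's median (3.14 or 5.11) on at least 2 of 4 arrays in either type. Genes were fitted with limma 3.58.1 in R 4.3.3 (lmFit, eBayes, 1 mean per group over 8 arrays, 4 residual degrees of freedom), with Benjamini-Hochberg adjustment and a threshold of 0.05. The smallest exact permutation p for 2 against 2 is 0.333, so no permutation test was used. The fit was tested on simulated data. Background was the highest of 44 non-mouse control probe sets. The members and lists were chosen with earlier results of these data known. Named were Myc, the members with the largest differences without overlap, those whose probe sets disagree, and the top genes of the other lists; the rest are named to account for every member. Alternatives covered the filter, probe sets, scaling, the arrays fitted, the variance prior, the replicate number and leaving out each array.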

Additional observations from a re-analysis of the deposited data

Results flagged for a closer look

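For 9 genes, both GOF arrays lay below both control papilloma arrays and both KO arrays lay above both control carcinoma arrays, a pattern of 4.56% of all genes. Of the 5 with another probe set, 4 (Wdr43, Ddx21, Noc3l and Rrs1) overlapped in papilloma on it, while all 5 were higher on both KO arrays. The difference between the effects (KO minus GOF, log2) was 1.22 for Wdr43, 1.18 for Nop14, 1.09 for Ncl, 1.03 for Nop58, 0.97 for Nop56, 0.96 for Noc3l, 0.95 for Ddx21, 0.81 for Heatr1 and 0.76 for Rrs1. Tested in limma as an interaction, none passed the adjusted threshold, with adjusted p from 0.103 for Wdr43 to 0.211 for Rrs1. The genes were picked for opposite directions in these same values, so this test gives no separate support. Another 9 genes of the list were higher on both arrays in both comparisons, against 8.39% of all genes. In Heatr1 the papilloma part was small on the brightest probe set (-0.05), so its value there is mostly the KO difference (0.77). Its other probe sets, also lower on both GOF arrays, gave -0.74 and -0.32 in papilloma, with 0.87 and 0.73 in carcinoma.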

How the results depend on the processing

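The number of ribosome biogenesis genes past the adjusted threshold was 0 in each comparison under every alternative run. Between 30 and 33 were higher on every KO array than on every control, against 21.8% to 43.9% of all genes over the same alternatives. The median KO difference was 0.62 to 0.75 when single arrays were left out (0.75 without KO replicate 1). The median GOF difference stayed between -0.06 and 0.08. Single differences, of at most 0.30 in size, changed sign in 11 genes in papilloma and in 1, Myc, in carcinoma. In papilloma, Noc4l was -0.048 without probe sets named _s_at or _x_at (0.30 otherwise), Pes1 was -0.054 with probe sets averaged, and Gar1 and Polr1b were 0.0021 and 0.0057 after median centring. Leaving out single arrays gave -0.12 to 0.074 for Fbl, -0.046 to 0.022 for Gar1, -0.18 to 0.33 for Ltv1, -0.44 to 0.39 for Nop2, -0.093 to 0.30 for Pes1, -0.020 to 0.32 for Polr1a, -0.16 to 0.14 for Polr1b, -0.28 to 0.076 for Polr1c, -0.19 to 0.59 for Rrp9 and -0.44 to 0.23 for Utp20. In carcinoma it gave -0.13 to 0.27 for Myc. The number of all genes called moved more. For GOF (184) it was 115 with no filter and 37 with the replicate block, and 2 to 308 leaving out single arrays (2 without either GOF array, 22 and 101 without control papilloma replicate 2 and 1, 81 without either KO array, 308 without either control carcinoma array). For KO (2) it was 0 when the probe sets of a gene were averaged, 0 with the 4 carcinoma arrays alone, 23 with a trended prior, 0 with the replicate block, and 0 to 107 leaving out single arrays (107 without control carcinoma replicate 1). For the difference (41) it was 11 with no filter, 11 with a filter over all 8 arrays, 11 with quantile normalization of all 8, 68 with the trended prior, 3 with the replicate block, and 1 to 286 leaving out single arrays (1 without either GOF array, 3 and 4 without KO replicate 2 and 1, 7 without control papilloma replicate 2, 12 and 286 without control carcinoma replicate 2 and 1). The cause was not tested. The replicate numbers were not treated as pairing: deviations of same-numbered arrays correlated at -0.0036 in papilloma and 0.123 in carcinoma. Only 2 arrays per group limit the precision, and Polr1b in papilloma lies near background.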
